A study of Caenorhabditis elegans with 24 samples.

Results

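The effect of removing HSF-1 from the germline was measured over both lengths of auxin treatment at once, in the 12 of the 24 libraries of the series that come from this experiment. These are the 6 libraries of whole animals kept on auxin and the 6 of animals kept on ethanol, chosen by their treatment and duration labels and not by any measured value. All 12 libraries were made from strain JTL642, which carries *daf-2(e1370)* on chromosome III, the degron-tagged *hsf-1* allele ljt3[hsf-1::degron::gfp] on I and the transgene ieSi38 on IV. In ieSi38 the *sun-1* promoter drives the plant protein TIR1 in the germline, so that auxin is meant to degrade tagged HSF-1 there and not in other tissues. The ethanol controls therefore also have reduced insulin signaling, the tagged HSF-1 and TIR1. Animals were on 1 mM auxin for 16 h from the young adult stage, or for 88 h from egg lay until they were gravid adults, and controls were on 0.25% ethanol for the same time, with 3 libraries in each of the 4 groups. Each library is a pool of adults of this 1 strain, and nothing in the labels says that libraries came from separate cultures, so p-values measure the spread between these libraries only. No library of these 12 had auxin without degron-tagged HSF-1, and the loss of HSF-1 and the exposure to auxin itself cannot be told apart in them.

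HSF-1 is the transcription factor that switches on chaperone genes when proteins misfold, and it also keeps some of them expressed without heat stress. HSP90 and HSP70 are ATP-driven chaperones that fold or hold client proteins, and J-domain proteins, nucleotide exchange factors and tetratricopeptide co-chaperones load and release their clients. The tagged protein is degraded after translation, so the *hsf-1* transcript does not show how far HSF-1 was lost. Auxin is also a foreign indole compound to the worm, and cytochrome P450 enzymes, which oxidise such compounds, and UDP-glucuronosyltransferases and glutathione S-transferases, which conjugate them, are the usual detoxification genes.

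The deposited values are log2 CPM, read counts scaled to the size of each library, and each gene was tested with limma for 1 effect of auxin shared by both durations, with the duration as a covariate, over 12634 genes that reached at least 1 CPM in at least 3 libraries. A gene is called when its Benjamini-Hochberg adjusted p is under 0.05. Estimated from the steps between low values, the table held 20.9 to 38.01 M reads per library (M, mega). The 36 germline and oocyte marker genes, all of them tested, summed to between 14238 and 19267 CPM in every group, so that germline RNA was present throughout. The *hsf-1* transcript (WBGene00002004) stood at 61.5, 74.6 and 78.6 CPM in the 16 h controls, 70.6, 74.2 and 78.1 CPM on auxin for 16 h, 57.96, 63.5 and 65.6 CPM in the 88 h controls and 64.5, 71.6 and 71.9 CPM on auxin for 88 h. Its groups overlapped at each duration, with a pooled log2 difference of 0.11 ± 0.07 (SE, limma adjusted p = 0.734), which takes the other sign, -0.05, with the share of ribosomal RNA as a covariate.

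In the pooled comparison 17 genes were called, 13 higher and 4 lower on auxin, out of 12634 (0.135% in all, 0.103% higher and 0.0317% lower). The 4 lower genes were 3 cytosolic chaperone genes and a cathepsin B-like protease gene, and 6 of the 13 higher genes were cytochrome P450 genes. At an unadjusted p under 0.05 there were 623 higher genes (4.93% of those tested) and 386 lower genes (3.06%). The groups did not overlap at 16 h nor at 88 h, in the same direction, for 228 genes (1.80%), 169 of them higher (1.34%) and 59 lower (0.467%), and all 17 called genes were among these. With each control and auxin library of equal replicate number and duration taken as a pair, 33 genes were called, 24 higher and 9 lower, 16 of the 17 among them. The share of ribosomal RNA was 1.68% to 4.40% in the 16 h controls against 4.59% to 6.14% on auxin, with no overlap, and 4.47% to 5.55% in the 88 h controls against 5.37% to 8.09% on auxin, which overlapped. With that share as a covariate, an alternative added after the data were seen, 12 genes were called, 10 higher and 2 lower. As the share itself differed between auxin and ethanol, this covariate can take up part of the auxin effect. A call lost or a sign changed with it, here and below, cannot tell the share and the auxin effect apart. When all 4 libraries of 1 replicate number were left out, also added later, *lbp-8*, Y43D4A.2, *cest-35.2*, *cpr-4* and *icmt-1* were not called whichever number it was.

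**Figure D1:**
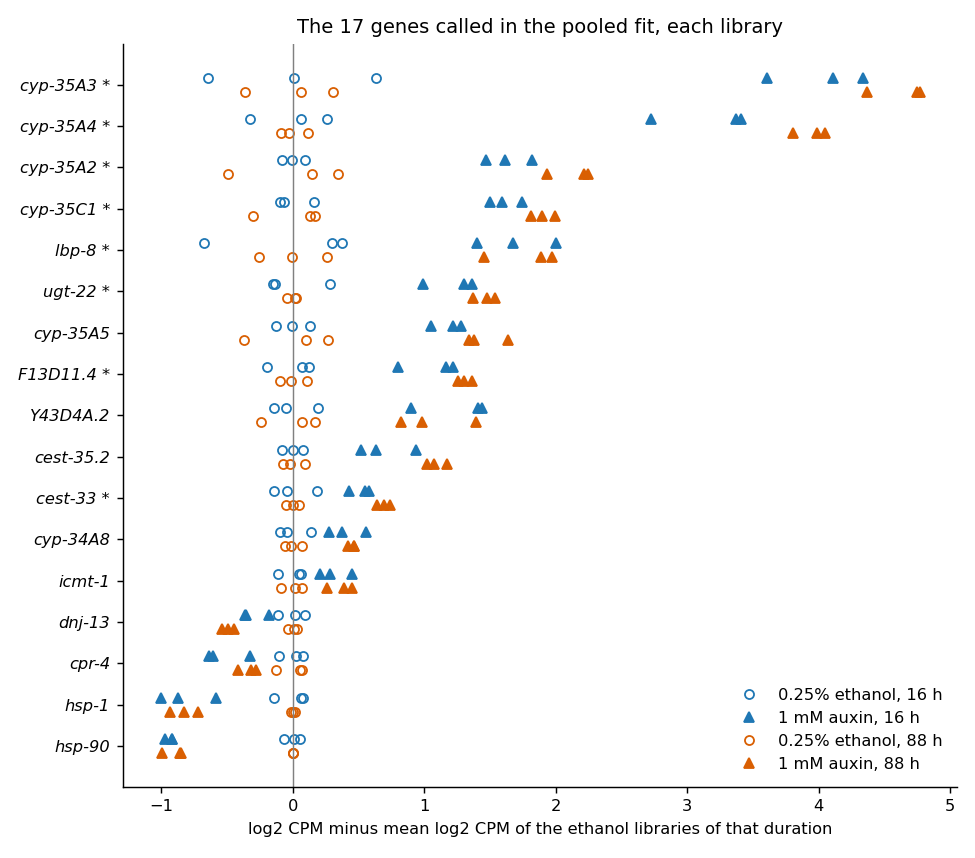
Each of the 17 called genes in each library, as log2 CPM minus the mean log2 CPM of the 3 ethanol libraries of the same duration. Open circles are ethanol and filled triangles auxin, blue at 16 h and orange at 88 h, and an asterisk marks genes on the list of auxin-induced genes. No triangle overlaps the circles of its duration, and the pooled change runs from 4.32 for *cyp-35A3* to -0.92 for *hsp-90*.

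The mRNA of *hsp-90* (WBGene00000915, V 14684918 to 14688545 in WBcel235), the cytosolic HSP90, fell. It stood at 2712, 2959.5 and 2867 CPM in the 16 h controls and 1454, 1504 and 1505 CPM on auxin, and at 2771, 2777 and 2772 CPM in the 88 h controls and 1394, 1534 and 1540.3 CPM on auxin. Every auxin library lay below every control library of either duration. The pooled change was -0.92 ± 0.06 on the log2 scale (SE, 95% interval -1.04 to -0.80), to 0.530 of the control level, with a limma adjusted p = 2.58e-06.

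The constitutive cytosolic HSP70 gene *hsp-1* (WBGene00002005, IV 17278959 to 17281330) also fell. Its levels were 3120.0, 3640.4 and 3602 CPM in the 16 h controls and 1879.7, 1718 and 2301 CPM on auxin, with the third auxin library the highest of its group. At 88 h they were 3580.3, 3617 and 3548 CPM and 1872, 2169 and 2025 CPM, again with no auxin library reaching a control. The pooled change was -0.82 ± 0.08 (95% interval -1.003 to -0.64, limma adjusted p = 0.000398). The *hsp-1* call was lost without the 4 libraries of replicate number 2 (limma adjusted p = 0.185). The gene *dnj-13* (WBGene00001031, II 11545701 to 11547360), a J-domain partner of HSP70, stood at 169, 185 and 195 CPM in the 16 h controls against 143, 143 and 162 CPM, and at 170.2, 176 and 179 CPM in the 88 h controls against 121, 129 and 124 CPM. It fell by less than the other chaperones called, with a pooled change of -0.39 ± 0.06 (95% interval -0.51 to -0.27, limma adjusted p = 0.00821). The call of *dnj-13* was lost with the share of ribosomal RNA as a covariate (limma adjusted p = 0.104), without duration in the fit (0.0873), and without the libraries of number 2 (0.851) or number 3 (0.255).

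The other lower gene was *cpr-4* (WBGene00000784, V 6614674 to 6615851), which encodes a cathepsin B-like cysteine protease. It stood at 279, 245 and 268 CPM in the 16 h controls and 173, 169.9 and 211 CPM on auxin, and at 248, 282 and 285 CPM and 204, 224 and 218 CPM at 88 h. The groups did not overlap, and the pooled change was -0.43 ± 0.07 (95% interval -0.58 to -0.28, limma adjusted p = 0.0289). When 1 library was left out, *cpr-4* stayed past the threshold only without auxin 16 h replicate 3, control 88 h replicate 1 or auxin 88 h replicate 2, and its adjusted p ranged from 0.0122 to 0.118. It was not called with the share of ribosomal RNA as a covariate (limma adjusted p = 0.664) or without duration (0.0877), nor with median of ratios scaling (0.0581), eBayes without trend (0.0964) or the auxin list left out (0.0575).

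Of the 19 genes of the HSP90 and HSP70 machinery, all tested, 3 were called lower and none higher (0.0317% and 0.103% of all genes). Their median change was -0.17 on the log2 scale, beside -0.01 over all genes tested, and 13 were negative and 6 positive. At an unadjusted p under 0.05, 9 of the 19 were lower, where 3.06% of all genes were, and 6 of the 19 had no overlap below their controls at both durations, where 0.467% of all genes did. Under other scalings and the ribosomal RNA covariate 3 to 7 members were positive. Next after the called genes came the co-chaperones of HSP90. The peptidyl-prolyl isomerase *fkb-6* stood at 218, 232 and 227 CPM in the 16 h controls and 187, 188 and 210.1 CPM on auxin, and at 218, 208 and 216 CPM in the 88 h controls and 158, 158 and 182 CPM on auxin. Its groups were apart at both durations, yet it was not called, at -0.29 ± 0.05 (limma adjusted p = 0.0675). It was past the threshold with quantile scaling (0.0109), with library weights (0.0244), with replicate number as a covariate (0.0459) and without auxin 16 h replicate 3 (0.0266).

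The gene *sti-1*, whose product bridges HSP70 and HSP90, was at 146, 159 and 171 CPM and 132, 136 and 147 CPM at 16 h, which overlapped, and at 161, 169 and 158 CPM and 113, 124 and 129.9 CPM at 88 h, which did not. The pooled value was -0.31 ± 0.06 (limma adjusted p = 0.092). It was past the threshold with quantile scaling (limma adjusted p = 0.0122), with library weights (0.0146), with replicate number as a covariate (0.0459) and without control 16 h replicate 1 (0.0329). Further members with groups apart at both durations were *ahsa-1*, the activator of the HSP90 ATPase (-0.21 ± 0.05, limma adjusted p = 0.187), and *hip-1*, the HSP70-interacting protein (-0.24 ± 0.06, adjusted p = 0.193). The J-domain genes *dnj-19* and *dnj-12* had -0.24 ± 0.06 and -0.23 ± 0.06, and *daf-41*, the p23 co-chaperone, had -0.14 ± 0.07. These 6 genes, *fkb-6* included, were chosen after their values were seen. None of them came near the change of *hsp-90* or *hsp-1*.

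**Figure D2:**
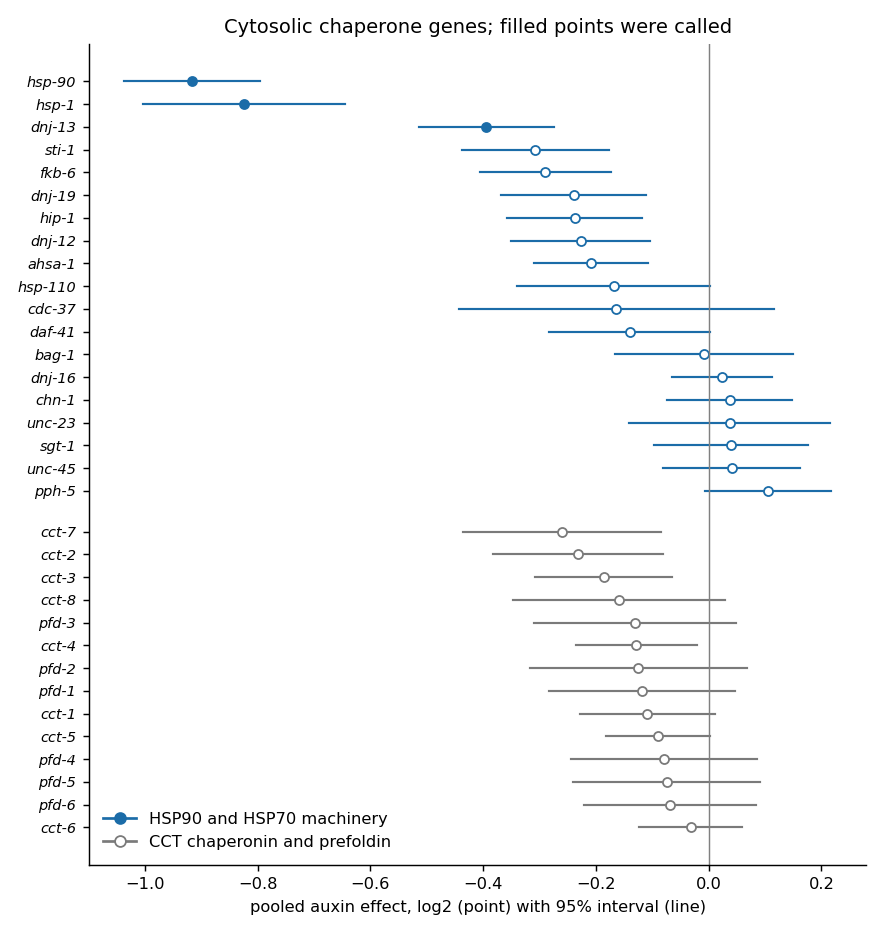
Pooled auxin effect on the log2 scale (x axis) for the 19 genes of the HSP90 and HSP70 machinery (blue) and the 14 genes of the CCT chaperonin and prefoldin (grey). Points are estimates from the 12 libraries and lines their 95% intervals, and the 3 filled points, *hsp-90*, *hsp-1* and *dnj-13*, were called. All 14 grey points lie below 0, the lowest at -0.26.

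The CCT chaperonin folds actin and tubulin, and prefoldin hands nascent chains to it. None of their 14 genes was called. All 14 had a negative estimate with a median of -0.12, beside -0.01 over all genes tested, of which 6798 of 12634 were negative. At an unadjusted p under 0.05, 4 of the 14 were lower, where 3.06% of all genes were. With the share of ribosomal RNA as a covariate, 2 of the 14 turned positive. The lowest were *cct-7* (-0.26 ± 0.08, limma adjusted p = 0.386) and *cct-2* (-0.23 ± 0.07, adjusted p = 0.36), named after their values were seen. The member of highest level, *cct-5*, stood at 319, 328 and 339 CPM and 293, 322 and 316 CPM at 16 h and 314, 341 and 330.5 CPM and 305, 295 and 321 CPM at 88 h, with overlap at each. Its pooled value of -0.09 has a 95% interval of -0.18 to 0.00.

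The heat-inducible and small heat shock genes, which HSF-1 induces under heat, had 10 of 17 listed members that passed the filter on low values. None was called or had an unadjusted p under 0.05. The 10 estimates were negative with a median of -0.14, but 4 were positive after quantile scaling, 3 with library weights, up to 3 without 1 library and 6, with a median of 0.17, when the share of ribosomal RNA was a covariate. Endoplasmic reticulum chaperones (18 tested, 12 positive, median 0.04) and mitochondrial chaperones and proteases (13 tested, 7 positive, or 4 to 7 under other scalings and the ribosomal RNA covariate) had no called member. At an unadjusted p under 0.05, 3 and 2 of them were higher, where 4.93% of all genes were. None of the former and 1 of the latter were lower, where 3.06% of all genes were.

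The genes that rose were led by cytochrome P450 genes. The gene *cyp-35A3* (WBGene00019565, V 4022609 to 4024482) stood at 0.715, 1.13 and 1.74 CPM in the 16 h controls and 13.6, 22.6 and 19.2 CPM on auxin, and at 0.907, 1.45 and 1.22 CPM in the 88 h controls and 24.1, 31.8 and 31.4 CPM on auxin. It rose by 4.32 ± 0.23 on the log2 scale (limma adjusted p = 1.4e-06), the largest change among the 17. Its neighbour *cyp-35A4* (WBGene00016786, V 4031619 to 4033446) was near 0.795 CPM in the 16 h controls (0.626, 0.818 and 0.942) and 5.17, 8.12 and 8.32 CPM on auxin. At 88 h it was at 0.636, 0.573 and 0.551 CPM and 8.15, 9.69 and 9.28 CPM, a pooled rise of 3.56 ± 0.20. In both genes each auxin library was far above all 6 control libraries. All 6 controls of *cyp-35A4* were below 1 CPM, so that it entered the test through the auxin libraries, where it is high. With a filter of at least 1 CPM in all 12 libraries *cyp-35A3*, *cyp-35A4* and *lbp-8* were not tested, and 10 genes were called higher and 4 lower.

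Other cyp-35 genes started from a higher level. The gene *cyp-35A2* (V 7362319 to 7364182) stood at 40.1, 38.1 and 43.1 CPM and 112, 142 and 124 CPM at 16 h, and at 20.02, 31.1 and 35.7 CPM and 107, 131 and 133 CPM at 88 h, with no overlap at either. The gene *cyp-35C1* (V 13896663 to 13898487) stood at 14.1, 11.8 and 12.01 CPM and 37.9, 42.2 and 35.7 CPM at 16 h, and at 11.04, 14.9 and 15.4 CPM and 50.7, 54.2 and 47.9 CPM at 88 h. They rose by 1.88 ± 0.14 and 1.76 ± 0.10. The gene *cyp-35A5* (V 3936326 to 3938597) was at 10.7, 11.7 and 9.77 CPM and 24.8, 25.9 and 22.2 CPM at 16 h and at 5.87, 8.16 and 9.17 CPM and 19.3, 19.7 and 23.7 CPM at 88 h, a rise of 1.32 ± 0.11 (limma adjusted p = 9.08e-05). It is the cyp-35 gene called here that is not on the list of auxin-induced genes. Of the 7 cyp-35 genes tested 5 were called, where 0.103% of all genes were called higher. Among these 5, *cyp-35A4* was tested only through its auxin libraries. The cyp-35 genes are part of the cytochrome P450 list and were not a list of their own. The other 2, *cyp-35D1* (0.60 ± 0.14, limma adjusted p = 0.191) and *cyp-35B1* (0.23 ± 0.10, adjusted p = 0.623), also had positive estimates. The cyp-35A genes are close paralogs, and since multi-mapped reads were counted as fractions their levels may be partly shared.

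The sixth P450 gene called, *cyp-34A8* (V 3964797 to 3967823), was at 37.8, 32.2 and 33.4 CPM and 44.6, 50.6 and 41.7 CPM at 16 h and at 41.9, 43.4 and 46.1 CPM and 58.6, 60.6 and 60.6 CPM at 88 h. Its rise was small, 0.43 ± 0.06 (limma adjusted p = 0.00726), and its call was lost with the share of ribosomal RNA as a covariate (adjusted p = 0.369) and without duration in the fit (adjusted p = 0.564). It was called at neither duration alone, and its 16 h auxin libraries were above their own controls. Over the 53 P450 genes tested, 6 were called higher and none lower (0.103% and 0.0317% of all genes), and 14 were higher and 1 lower at an unadjusted p under 0.05 (4.93% and 3.06% of all genes). The median was 0.12, with 37 positive estimates, beside -0.01 over all genes.

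Among conjugating enzymes and hydrolases 3 genes rose. The glucuronosyltransferase gene *ugt-22* (WBGene00007455, IV 13639260 to 13644567) stood at 82.2, 61.6 and 60.8 CPM in the 16 h controls and 167, 173 and 135 CPM on auxin, and at 68.6, 68.8 and 65.5 CPM and 188, 196 and 175 CPM at 88 h. It rose by 1.34 ± 0.09 (limma adjusted p = 6.62e-06) and was the 1 of 51 glucuronosyltransferase genes tested that was called, the median of the family being 0.11. Over all genes tested 0.103% were called higher. The carboxylesterase gene *cest-33* (V 6363408 to 6365671) was at 59.9, 47.7 and 50.97 CPM and 76.98, 78.8 and 70.7 CPM at 16 h and at 56.2, 54.6 and 52.7 CPM and 88.1, 91.3 and 85.1 CPM at 88 h, a rise of 0.61 ± 0.06. The gene *cest-35.2* (V 5234752 to 5237216) was at 3.65, 3.87 and 3.46 CPM and 5.66, 7.004 and 5.25 CPM and at 2.35, 2.64 and 2.44 CPM and 5.004, 5.21 and 5.58 CPM, a rise of 0.89 ± 0.12 (limma adjusted p = 0.0071). The call of *cest-35.2* was lost with the share of ribosomal RNA as a covariate (adjusted p = 0.438) and without duration (adjusted p = 0.0873). *cest-33* and *cest-35.2* were the 2 called of 30 carboxylesterase genes (0.103% of all genes were called higher), whose median was 0.08. No glutathione S-transferase gene was called (29 tested, median 0.08, 9 higher at an unadjusted p under 0.05), nor any ABC transporter gene (28 tested, median 0.08, 4 higher), where 4.93% of all genes were higher. Without 1 library the median ranged from 0.039 to 0.149 for the glutathione S-transferases.

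The remaining higher genes are of other kinds. The gene *lbp-8* (WBGene00002260, V 13890773 to 13891364), a lipid-binding protein that carries lipids from lysosomes to the nucleus, was at 0.732, 0.696 and 0.353 CPM and 1.80, 2.26 and 1.49 CPM at 16 h, and at 0.854, 0.595 and 0.708 CPM and 2.79, 1.95 and 2.64 CPM at 88 h. It rose by 1.73 ± 0.24 (limma adjusted p = 0.0071), and was called at neither duration alone. Its 6 controls were also below 1 CPM, so that it too was tested only through the auxin libraries. The gene F13D11.4 (X 5831929 to 5834805) was at 5.35, 6.42 and 6.68 CPM and 13.7, 14.3 and 10.7 CPM, and at 6.42, 5.58 and 5.91 CPM and 15.3, 14.7 and 14.2 CPM, a rise of 1.18 ± 0.10. The gene Y43D4A.2 (IV 16744866 to 16755871) was at 2.23, 1.88 and 1.77 CPM and 5.16, 5.28 and 3.64 CPM, and at 2.49, 1.88 and 2.33 CPM and 5.82, 4.38 and 3.92 CPM, a rise of 1.16 ± 0.16. Both were clear of their controls, and no function is stated here for either. With the share of ribosomal RNA as a covariate, *lbp-8* and Y43D4A.2 each had a limma adjusted p = 0.0683 and were no longer called.

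The smallest called rise was that of *icmt-1* (WBGene00017673, I 4901918 to 4903264), the methyltransferase that caps prenylated proteins. It stood at 81.4, 72.4 and 80.6 CPM and 90.2, 107 and 95.1 CPM at 16 h and at 88 h at 74.5, 83.1 and 80.1 CPM in controls and 103.9, 94.7 and 108 CPM on auxin. The pooled rise was 0.34 ± 0.06 (limma adjusted p = 0.0395). It was past the threshold in 3 of 12 fits that left out 1 library, those without control 16 h replicate 1, auxin 16 h replicate 1 or auxin 88 h replicate 2, where the adjusted p over the 12 fits ranged from 0.0353 to 0.130. It was called in 6 of 14 other settings. The call was lost with the pairs as a block (limma adjusted p = 0.0587), quantile or median of ratios scaling, no duration, the mean of group means, eBayes without trend, the auxin list left out and the ribosomal RNA covariate, with adjusted p up to 0.682. Next to it lies *unc-38*, a subunit of the muscle acetylcholine receptor, 943 bases away with no tested gene between. That gene was at 38.5, 39.01 and 39.7 CPM and 42.4, 44.03 and 44.99 CPM at 16 h and at 36.9, 39.8 and 37.3 CPM and 50.2, 51.002 and 53.6 CPM at 88 h. It was called at 88 h alone and had a pooled value of 0.30 ± 0.06 (limma adjusted p = 0.0733).

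The authors' list of auxin-induced genes, made from another strain on auxin for 24 h, held 67 genes, of which 60 were tested. Of the 13 higher genes 8 were on it, *cyp-35A3*, *cyp-35C1*, *cyp-35A4*, *ugt-22*, *cyp-35A2*, F13D11.4, *cest-33* and *lbp-8*. Among these 8, *cyp-35A4* and *lbp-8* passed the filter on low values only through the auxin libraries, where they are high. The 5 that were not on the list were *cyp-35A5*, Y43D4A.2, *cest-35.2*, *cyp-34A8* and *icmt-1*, and none of the 4 lower genes was on it. Called genes made up 13.3% of the 60 listed genes tested and 0.135% of all genes tested. Of the 60 listed genes 44 had a positive estimate with a median of 0.14, 25 were higher and 2 lower at an unadjusted p under 0.05 (4.93% and 3.06% of all genes), and 14 had groups apart above their controls at both durations (1.34% of all genes). Relative to the mean of the controls of each duration, the list median was 0.180 in control 16 h replicate 1, above auxin 16 h replicates 1 and 3 at 0.155 and 0.107. In control 88 h replicate 1 it was 0.203, above auxin 88 h replicate 3 at 0.093. The remaining controls were below every auxin library. Most listed genes were not called, such as T16G1.6 at 2.20 ± 0.50 (limma adjusted p = 0.191), a gene chosen after its value was seen. When listed genes were left out before the adjustment, 7 genes were called, 4 higher and 3 lower.

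The called genes were unevenly placed, with 11 of the 17 on chromosome V, which holds 18.3% of the tested genes that have a position. Several of these are neighbours. The gene *cyp-35A3* lies 7.14 kb from *cyp-35A4*, with 1 tested gene between them, K09D9.1 (0.31 ± 0.28, limma adjusted p = 0.830). The gene *cyp-34A8* lies 54.8 kb before *cyp-35A3*, and *cyp-35A5* lies 26.2 kb before *cyp-34A8*. Between *cyp-35A5* and *cyp-34A8* there are 5 tested genes, 4 of them P450 genes, with changes from -0.38 to 0.23 and none called. Between *cyp-34A8* and *cyp-35A3* there are 8, from -0.51 to 0.63, the highest being *cyp-34A9* (0.63 ± 0.11, limma adjusted p = 0.0643). Further along V, *lbp-8* and *cyp-35C1* are 5.30 kb apart with *sptl-3* between them at 0.13. Genes in such a cluster need not vary independently, and the count on V was not tested.

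The pooled fit was narrower than either duration. The median standard error of a pooled change was 0.12 on the log2 scale against 0.17 at a single duration, and the median 95% half-width was 0.26, so that pooled changes of less than that size could not be told from 0 for most genes even before the adjustment. At 16 h 10 genes were called and at 88 h 13, with 9 in both and 14 in either. The pooled fit called 12 of these 14 and 5 more that neither duration called, which were Y43D4A.2, *lbp-8*, *cyp-34A8*, *cpr-4* and *icmt-1*. The other two of the 14 were *rnh-1.3*, an RNase H gene that was called at 16 h, and *unc-38*.

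For *rnh-1.3* the levels were 57.9, 56.4 and 57.9 CPM and 34.5, 36.5 and 31.8 CPM at 16 h and 41.5, 50.7 and 47.8 CPM and 36.7, 32.4 and 43.6 CPM at 88 h, so that the groups were apart at 16 h and overlapped at 88 h. Its pooled value was -0.53 ± 0.10 (limma adjusted p = 0.0643), and it was past the threshold without control 88 h replicate 1 (0.0200) or auxin 88 h replicate 3 (0.0104). All 17 called genes had the same sign at both durations. In fits of the 6 libraries of the other duration alone, each of the 10 genes called at 16 h and each of the 13 called at 88 h had an unadjusted p under 0.05 with the same sign. Those calls came from a fit of all 12 libraries with 1 shared estimate of the spread, and 9 genes were called at both durations. These fits are therefore not an independent check, and nothing is concluded from them. The share of all genes that would meet the same condition was not counted. Across all 12634 genes, which are not independent replicates, the changes at 16 h and 88 h had a Pearson r of 0.27 and the same sign in 61.4%.

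No gene was called for a difference between the durations, 88 h minus 16 h, in the limma fit, and 241 genes (1.91%) had an unadjusted p under 0.05. Of the 13 higher genes 12 had the larger estimate at 88 h, all but Y43D4A.2, and of the 4 lower genes 2 had the lower estimate at 88 h. The share of all genes with a larger estimate at 88 h was not counted, and the cyp-35A paralogs among the 12 may share reads. The difference was 0.04 for *hsp-90* (95% interval -0.22 to 0.29) and -0.01 for *hsp-1* (-0.39 to 0.37). It was 0.61 for *cyp-35A3* (-0.37 to 1.59) and 0.78 for *cyp-35A4* (0.02 to 1.54, unadjusted p = 0.0453, limma adjusted p = 0.9997), the 1 gene of the 17 with an unadjusted p under 0.05. Animals of the 2 durations also differed in age and in the stage at which auxin began, which cannot be told apart from the length of treatment.

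**Figure D3:**
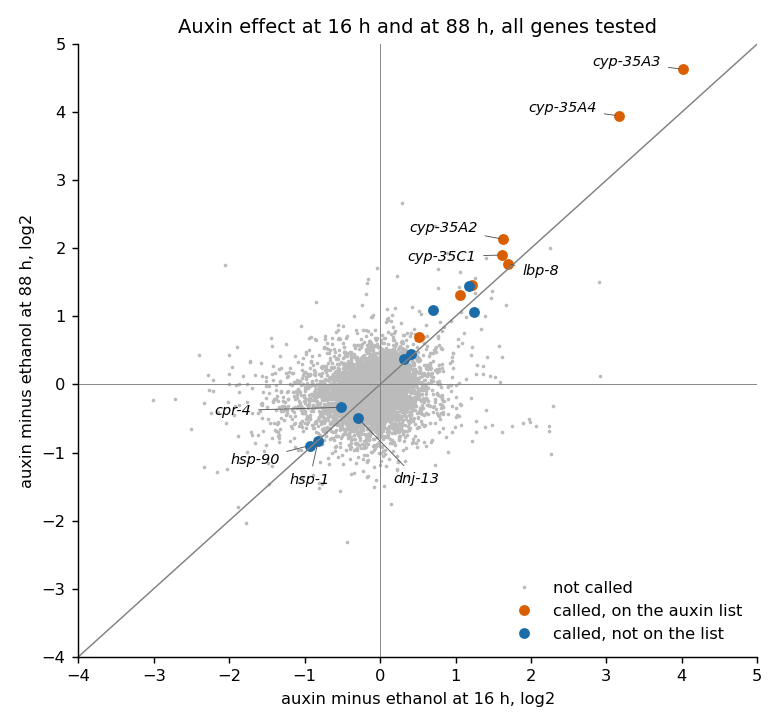
Auxin minus ethanol at 16 h (x axis) and at 88 h (y axis) on the log2 scale, 1 point per gene tested, with the line of equal change. Grey points were not called in the pooled fit, orange points were called and are on the list of auxin-induced genes, and blue points were called and are not on it. The 17 called genes lie near the diagonal, from *hsp-90* at -0.92 to *cyp-35A3* at 4.32 in the pooled fit.

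Libraries of equal replicate number deviated together from their group means, with correlations across genes of 0.121 to 0.624 at 16 h and 0.274 to 0.664 at 88 h. Those of unequal number reached 0.182 at 16 h and 0.421 at 88 h. The main fit did not use the pairs. The block of 6 pairs called 17 genes beyond the main ones, 12 higher and 5 lower. Among the higher were detoxification genes, such as *pgp-1*, a P-glycoprotein (1.41 ± 0.16, limma adjusted p = 0.00314 in the block), *gst-5* (0.80 ± 0.13, adjusted p = 0.0395), *ugt-62* (0.39 ± 0.07, adjusted p = 0.0438) and *cyp-34A9* (0.63 ± 0.10, adjusted p = 0.0451). Also higher were *hpd-1*, which degrades tyrosine (0.39 ± 0.05, adjusted p = 0.0130), C29F7.2 (0.86 ± 0.10, adjusted p = 0.00432) and *tpp-2*, the peptidase that trims peptides released by the proteasome (0.26 ± 0.04, adjusted p = 0.0328). The lower ones included lysozyme genes, *ilys-5* (-0.80 ± 0.09, adjusted p = 0.00353) and *lys-4* (-0.41 ± 0.06, adjusted p = 0.0328), and *cpr-5*, another cathepsin B-like gene (-0.82 ± 0.14, adjusted p = 0.0493). Of the 17 added genes 4 were on the auxin list. Without the block none of them was called, and the limma adjusted p was 0.162 for *pgp-1*, 0.140 for *gst-5*, 0.174 for *ilys-5* and 0.235 for *cpr-5*. These were chosen among the added genes after their values were seen.

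Of the 33 proteasome subunit genes none was called, and 28 had a positive estimate with a median of 0.10. At an unadjusted p under 0.05, 16 were higher and none lower (4.93% of all genes were higher). Over the other scalings and the ribosomal RNA covariate 24 to 30 were positive. By duration, 32 of the 33 were positive at 16 h with a median of 0.15, and 24 at 88 h with a median of 0.07. Relative to the mean of the controls of each duration, every 16 h auxin library had a list median above its controls. At 88 h the groups overlapped, as auxin replicates 1 and 2 were below control replicate 2. The difference between the durations was not tested for the list. The largest pooled estimate was that of *rpn-7*, named after its value was seen, a lid subunit (0.19 ± 0.05, limma adjusted p = 0.331). The member of highest level, *rpn-2*, was at 364, 393 and 402 CPM and 385, 385 and 446 CPM at 16 h and at 367, 389.6 and 373 CPM and 351, 429 and 423 CPM at 88 h, with overlap at each. Its value of 0.08 ± 0.06 turned to -0.04 with the share of ribosomal RNA as a covariate. Ubiquitin and stress ubiquitin ligase genes had a median of 0.08, with 13 of 18 positive and 5 higher at an unadjusted p under 0.05, and 8 positive with that covariate.

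Of the 82 cytosolic ribosomal protein genes none was called either. The 82 estimates were negative with a median of -0.20, and 18 were lower at an unadjusted p under 0.05, against 3.06% of all genes, while 4 turned positive with quantile scaling, 2 with library weights and 32 with the share of ribosomal RNA as a covariate, where the median was -0.02. At 16 h their median was -0.06 and at 88 h -0.31. Control 88 h replicate 1 stood apart, with 109559 CPM in these genes against 81504 and 82214 CPM in the other 88 h controls, and without it the pooled median was -0.095 with 4 positive. The lowest p was that of *ubl-1*, a ubiquitin-like fusion with a ribosomal protein (-0.33 ± 0.07, limma adjusted p = 0.191), named after it was seen. The gene of highest level, *rpl-2*, was at 2826, 3225 and 3157 CPM and 2713, 2681 and 3325 CPM at 16 h, which overlapped, and at 4086, 3252 and 3361 CPM and 2975, 2944 and 2992 CPM at 88 h, which did not. The 4 ribosomal RNA genes themselves had positive estimates with a median of 0.53, in polyA-selected libraries, and their part in the ribosomal protein values was not tested beyond that covariate.

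Genes that SKN-1, the factor of the oxidative and xenobiotic response, activates had positive estimates in 10 of 10 tested members, with a median of 0.32, and in 9 of 10 with a pseudocount of 1. At 88 h 8 of the 10 were positive. Relative to the mean of the 16 h controls, the list median was 0.49 in control 16 h replicate 1, above auxin 16 h replicates 2 and 3 at 0.36 and 0.18. None was called, and 5 were higher at an unadjusted p under 0.05 (4.93% of all genes), *gst-4* among them (0.45 ± 0.12, limma adjusted p = 0.28). The gene of highest level, *gcs-1*, the rate-limiting enzyme of glutathione synthesis, was at 103, 102 and 99.3 CPM and 106, 113 and 111 CPM at 16 h and at 113, 100.1 and 99.02 CPM and 114, 116 and 107 CPM at 88 h. The auxin libraries were above the controls at 16 h and overlapped them at 88 h, with a pooled value of 0.11 ± 0.04 (limma adjusted p = 0.515). Some members, such as *gst-4* and *gst-5*, are also on the auxin list.

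Markers of cell types were compared in the same way, and in whole animals fewer cells of a type and less RNA per cell cannot be told apart. Germline and oocyte markers (36 tested, 14 positive) had a median of -0.03 (18 positive with quantile scaling, 2 with the ribosomal RNA covariate), with 1 higher and none lower at an unadjusted p under 0.05 (4.93% and 3.06% of all genes). Sperm markers had 67 of 73 negative estimates with a median of -0.41 but no member with an unadjusted p under 0.05, and 66 of 73 were positive with a median of 0.47 once the share of ribosomal RNA was a covariate. Without 1 library their median ranged from -0.77 to -0.16. Their summed level was 287 to 1102 CPM in the 16 h controls against 333 to 859 CPM on auxin, and 1686 to 3947 CPM in the 88 h controls against 1195 to 1974 CPM on auxin, so that the groups overlapped at each duration. Muscle markers had 13 of 13 negative estimates with a median of -0.21, of which 7 were positive with that covariate and 1 with quantile scaling or library weights, and intestine markers (15 tested) had a median of -0.05. The part of these markers in the called genes was not tested.

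**Figure D4:**
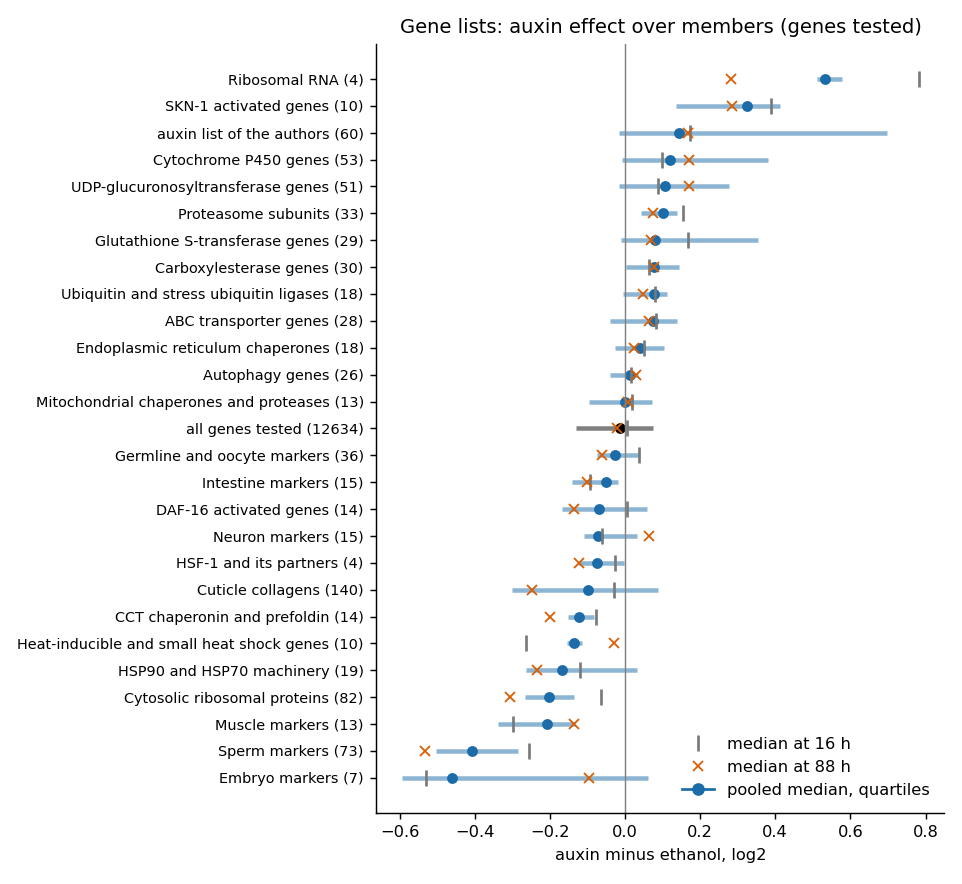
Auxin effect on the log2 scale (x axis) over the members of each gene list, with the number tested in brackets. Circles are the medians of the pooled change, bars run from the lower to the upper quartile, ticks and crosses are the medians at 16 h and 88 h, and black is all 12634 genes tested. Ribosomal RNA at 0.53, embryo markers at -0.46 and sperm markers at -0.41 lie farthest from the median of all genes at -0.01, and the HSP90 and HSP70 list is at -0.17.

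A separate part of the series measured the same strain without auxin, as isolated germline nuclei and as whole worm lysate, 3 libraries each, and holds values of the called genes that the depletion fit did not use. Of the 17 called genes 16 were tested there, and 9 were lower in nuclei than in worms with a limma adjusted p under 0.05 and none higher. Over all 13613 genes tested there, 32.0% were lower and 21.3% higher, with a median of -0.63, and the median of the 16 genes was -2.48. RNA of nuclei and of whole animals differs in cell compartment as well as in tissue, and these cannot be told apart.

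The chaperone gene *hsp-90* was at 47.3, 42.6 and 38.9 CPM in nuclei and at 365, 829 and 750.1 CPM in worms, a log2 difference of -3.83 ± 0.35 (SE, limma adjusted p = 1.29e-06). The gene *hsp-1* was at 188, 174 and 147 CPM in nuclei and 565, 568 and 616 CPM in worms, a difference of -1.79 ± 0.22. Both were thus measured in every nuclei library. The gene *ugt-22*, at 48.6, 63.7 and 40.3 CPM in worms, was at 2.02 and 2.42 CPM in nuclei libraries 1 and 3 and listed at 0 reads in library 2. The gene *cyp-35A4* was listed at 0 reads in all 3 nuclei libraries and at 0.424, 0.396 and 0.347 CPM in worms. The gene *cest-33* did not differ beyond its spread, at 27.02, 31.9 and 25.8 CPM in nuclei and 36.1, 32.2 and 25.6 CPM in worms, a difference of -0.14 ± 0.29 (limma adjusted p = 0.701). The *hsf-1* transcript went the other way, at 53.5, 44.6 and 34.9 CPM in nuclei and 9.90, 29.4 and 30.5 CPM in worms (1.08 ± 0.41, limma adjusted p = 0.0394).

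**Figure D5:**
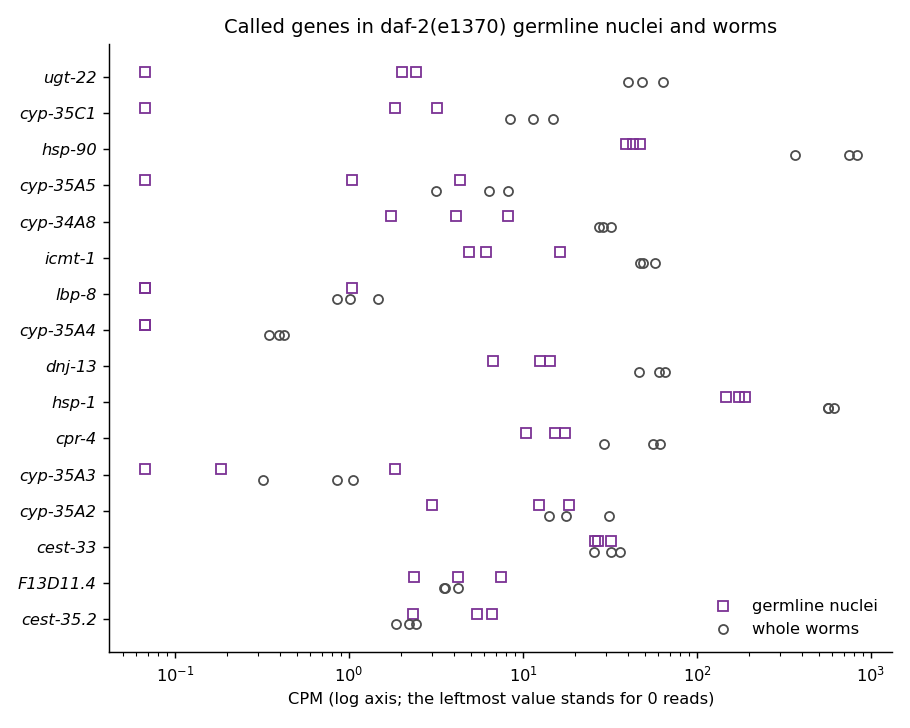
CPM (log x axis) of the 16 called genes tested in the nuclei table, in *daf-2(e1370)* germline nuclei (purple squares) and whole worms (grey circles) without auxin, 3 libraries each, with the lowest nuclei to worm ratio at the top. The leftmost position stands for 0 reads. Nuclei of *ugt-22*, at the top, are at most 2.42 CPM, and *cest-35.2*, at the bottom, is at 2.33 to 6.65 CPM in nuclei and 1.86 to 2.42 CPM in worms.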

How the data were processed

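Poly(A)-selected, directional RNA libraries of whole animals were sequenced by the authors, who mapped reads to WBcel235 (STAR) and assigned them to genes (featureCounts). Multi-mapped and overlapping reads were counted as fractions, which can share reads among paralogs. The deposited values are log2 CPM made by the authors with edgeR, for 12958 genes of the depletion table and 14206 of the nuclei table. The authors' fold changes, p-values and FDR were not used. A column of their comparison tables that holds the list of auxin-induced gene IDs was used as a mark only.

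Values were used as deposited, with no pseudocount added to them, and unlogged for the CPM printed. The lowest value, -4.09 on the log2 scale or 0.0586 CPM, marks 0 reads, and in the nuclei data 0.0672 CPM does. The deposited values thus already hold a small offset. It was taken off for summed levels, but not for the CPM of single genes or in the fits, where it weighs most on genes near the floor. Reads per library, estimated from the 2000 lowest values, came to 22.0 to 24.8 M (M, mega) in the 16 h controls, 20.9 to 25.6 on auxin for 16 h, 21.6 to 38.01 in the 88 h controls and 25.7 to 28.8 on auxin for 88 h. Genes at or above 1 CPM in 3 or more libraries went into a limma fit (version 3.58.1, R 4.3.3, lmFit and trended eBayes), with duration and auxin as terms for the pooled effect and 1 mean per group for each duration and their difference. Tests were two-sided with Benjamini-Hochberg adjustment over all genes fitted and a threshold of 0.05, and intervals cover 95%. The fit was run on simulated data whose noise was independent between libraries. Deviations shared by libraries of equal replicate number were not simulated, so that run does not test the unpaired fit against them. The study's own edgeR count test was not possible on log2 values. The nuclei table was fitted with 1 mean per group. Symbols and positions came from the Ensembl 115 annotation of WBcel235, where 12628 of 12634 genes had a position.

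The rule for named genes took *hsp-90*, *hsp-1*, *dnj-13*, *sti-1*, *hsf-1*, every gene called if 40 or fewer, up to 3 called members of each of 25 gene lists or else the member of highest level, and members called against their list. Genes outside it are said to have been chosen after their values were seen. The comparison, the lists and the rule were chosen with earlier results of these data known. Replicate numbers were taken as pairs because every pair of control and auxin libraries of equal number and duration correlated above 0.1, although libraries of unequal number reached 0.182 at 16 h and 0.421 at 88 h, and the labels do not say what a number marks. Alternatives were blocks, scaling, pseudocount, filters, eBayes settings, library weights, the auxin list left out and each library left out. Leaving out all 4 libraries of 1 number and the ribosomal RNA covariate were added after the data were seen.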

Additional observations from a re-analysis of the deposited data

How the results depend on the processing

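The pooled comparison called 17 genes, 13 higher and 4 lower. Pairs as a block gave 33 (24 and 9), replicate number as a covariate 32 (22 and 10), quantile scaling 27 (20 and 7), library weights 56 (39 and 17), and leaving out the auxin list 7 (4 and 3). Without duration in the fit, and with the share of ribosomal RNA as a covariate, 2 genes were called lower. Leaving out all libraries of number 2 gave 8 genes (7 and 1), where *hsp-1* had a limma adjusted p = 0.185, and of number 3 gave 9 (7 and 2). In both *hsp-90* and *cyp-35A3* remained called. Without 1 library there were 15 to 20 (12 to 16 higher, 3 to 6 lower). The 10 genes called at 16 h became 6 without control replicate 2 or 3 or auxin replicate 1 or 2, with a range of 6 to 9, and the 13 at 88 h became 8 in the 6 libraries of that duration alone and without control replicate 3 or auxin replicate 2, with a range of 8 to 14. The nuclei comparison called 7256 genes, and 5881 to 7354 without 1 library. The reversed values were -0.055 for *hsf-1* and -0.041 for *rpn-2*, both uncalled, with the ribosomal RNA covariate. The cause of these shifts was not tested, other than the fewer genes or samples that an alternative holds. Besides moving the pooled counts given above, the block of pairs moved the lower genes at 16 h from 3 to 5. It moved no other count at a single duration by over 1.5 times.

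Precision is limited by 3 libraries a group, and controls of *cyp-35A4* and *lbp-8* are all below 1 CPM. Multi-mapped reads of paralogs were split. Auxin and the loss of HSF-1, and duration and age, cannot be told apart.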

Other observations

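Gene groups with no called member and a median near that of all genes (-0.01) were autophagy genes (26 tested, median 0.01, 2 higher at an unadjusted p under 0.05, where 4.93% of all genes were), neuron markers (15 tested, median -0.07) and genes that DAF-16, the factor held back by insulin signaling, activates (14 tested, median -0.07, 1 higher). Over other scalings and the ribosomal RNA covariate each of these medians changed sign at least once, with 11 to 17, 7 to 13 and 5 to 9 positive members. Cuticle collagens had a median of -0.10 over 140 genes, 51 of them positive, with 0.26 and 115 positive once the share of ribosomal RNA was a covariate, and 0.014 and 71 of 136 positive without control 88 h replicate 1. Of 19 listed embryo markers 7 passed the filter on low values, with a median of -0.46, 3 positive and 2 lower at an unadjusted p under 0.05 (3.06% of all genes), while the summed level of the 8 in the table was 173 to 194 CPM in the 16 h controls against 179 to 189 CPM on auxin, and 147 to 166 CPM in the 88 h controls against 158 to 179 CPM on auxin. The genes that regulate HSF-1 or bind it, 4 tested, had a median of -0.08 with none called.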
